A study of Homo sapiens with 33 samples.

Results

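Clinically derived platinum-resistant ovarian carcinoma lines were compared with platinum-sensitive lines of the same patients, to ask which RNA changes the 3 resistant lines shared. The libraries were chosen by line name. They were the 9 of PEA2, PEO4 and PEO6 (resistant) and the 6 of PEA1 and PEO1 (sensitive), 15 of the 33 libraries and 5 of the 11 lines of the series. PEA1 and PEA2 came from one patient with high-grade serous ovarian carcinoma, and PEO1, PEO4 and PEO6 from another, so that the 3 resistant lines stood for 2 patients. PEO4 and PEO6 were both compared with PEO1 and share its libraries as controls, and the study describes them as thought to stem from one clone. All 5 lines were grown in RPMI medium with serum and pyruvate, each line had 3 libraries, and nothing in the labels says that these were separate cultures, so the p-values measure the spread between libraries, which may be technical. The other 18 libraries were of OVCAR3, OVCAR4 and the 4 resistant lines selected from them with cisplatin.

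High-grade serous carcinoma is treated with platinum compounds, which crosslink DNA, and tumours that first respond often return in a resistant form. Lines set up before and after that change share the patient but can also differ by tumour evolution and by adaptation to culture. Known routes to resistance include lower uptake or higher detoxification of platinum, restored DNA repair, blunted apoptosis, and shifts between epithelial and mesenchymal states. Tumour cells can also carry a standing interferon response, a programme that switches on antiviral and antigen presentation genes.

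Each library held between 24597243 and 43394009 estimated counts, and mitochondrial rRNA took between 1.8% and 7.62% of them. Every library was nearest to another library of its own line (15 of 15), with Pearson r between replicates of 0.96 to 0.994 across genes. PEA1 stood apart. The summed level of 11 high-grade serous carcinoma markers was 412 to 459 TPM (a level per transcript length, scaled to one library total) in PEA1 and 3950 to 6320 TPM in the other 4 lines. EPCAM, an epithelial adhesion protein, was at 14 ± 1.2 TPM (SD, n = 3) in PEA1 and at 575 to 800 TPM in line means elsewhere, and the E-cadherin gene CDH1 was at 1.26 ± 0.985 TPM in PEA1 and at 34.1 to 204 TPM elsewhere. PAX8, the lineage factor of this tumour, was at 74.9 ± 12.7 TPM in PEA1 and was not low there. The 8 fibroblast markers summed to at least 69.8 TPM in PEA1, 0.653 to 1.12 in PEA2, 164 to 220 in PEO1, 93.1 to 129 in PEO4 and 90.9 to 130 in PEO6, and DCN and COL3A1 had 0 counts in PEA1. Leukocyte markers summed to 11.2 to 23.9 TPM in PEA1, 55.2 to 57.8 in PEA2, 30.2 to 35.6 in PEO1, 23.3 to 34.3 in PEO4 and 10.6 to 13.9 in PEO6. CD3E and AIF1 had 0 counts in all 5 lines. Endothelial markers summed to 0.13 to 0.285 TPM in PEA1, 5.69 to 8.87 in PEA2 and at most 0.301 in the PEO lines. In PEA2, 3 of 4 tested leukocyte and 2 of 4 tested endothelial markers were called higher and 0 lower (23.3% and 23.8% of all tested genes were). The part of the low carcinoma markers of PEA1 in any result for PEA2 was not tested, and results are therefore also given for the PEO family alone.

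Most of the change in the 3 resistant lines was not shared. DESeq2 called 8088 of 17204 genes in PEA2 against PEA1 (47%), 5820 of 17467 in PEO4 against PEO1 (33.3%) and 6962 of 16803 in PEO6 against PEO1 (41.4%), at a Benjamini-Hochberg adjusted p under 0.05. Of the 15682 genes tested in all 3 pairs, 332 were higher in every resistant line (2.12%) and 483 were lower in every one (3.08%). A larger set, 1106 genes (7.05%), was called in all 3 pairs but moved in PEA2 against the direction of PEO4 and PEO6, with 630 higher in PEA2 (4.02%) and 476 lower (3.04%). Among the 1921 genes called in PEA2 and in a single direction in both PEO lines, 42.4% therefore had the same direction in the 2 patients. The PEO lines on their own shared 1606 higher and 1871 lower genes, but those comparisons use the same PEO1 libraries. Over all tested genes 23.3% were higher and 23.8% lower in PEA2. If the changes of the 2 patients were unrelated, some genes called in both PEO lines would still be called alike in PEA2. Whether the shared counts exceed that was not tested. Across the 15682 genes, the change in PEA2 and the mean change of PEO4 and PEO6 had r = -0.0695.

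**Figure D1:**
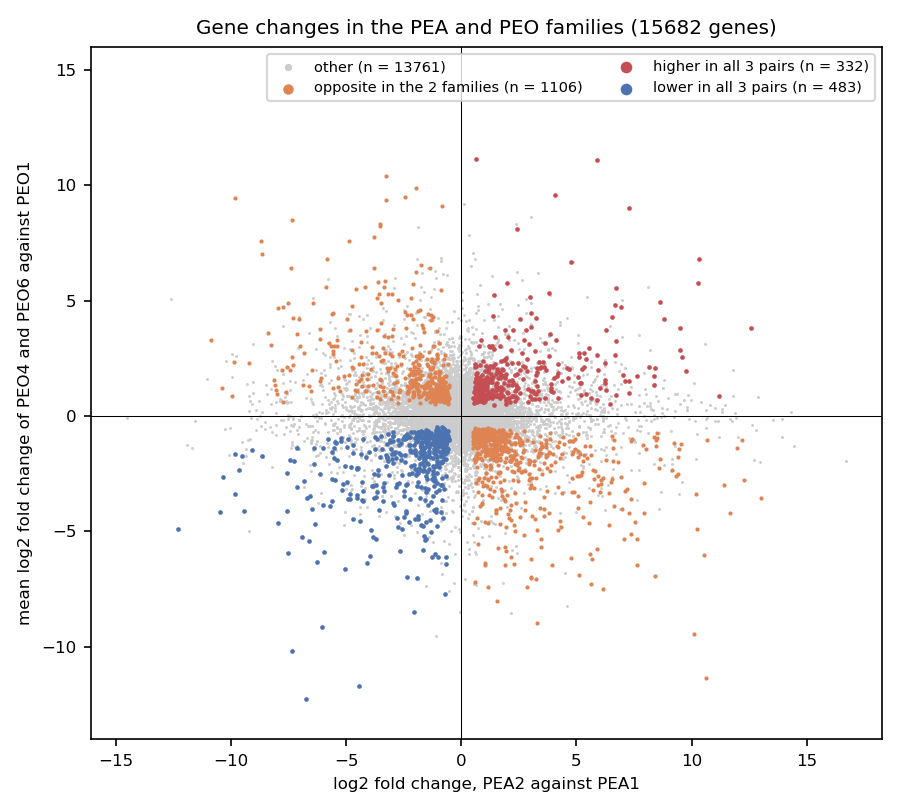
Log2 fold change of each of 15682 genes in PEA2 against PEA1 (horizontal axis) and the mean of PEO4 and PEO6 against PEO1 (vertical axis). Red and blue points are the 332 genes higher and the 483 genes lower in all 3 pairs, orange points the 1106 genes called with opposite directions in the 2 families and grey points all others. The orange points outnumber the red and blue ones together.

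The shared changes varied in size. Over the 15 libraries, 255 shared higher and 371 shared lower genes averaged 100 or more normalised counts and showed no overlap between the libraries of any resistant line and those of its sensitive line (2.13% and 3.1% of 11978 such genes). In the same class 879 genes were called with opposite directions (7.34%). Taking for each shared gene the smallest of its 3 log2 ratios, the median was 0.968 for the higher and -0.949 for the lower genes. The difference between the 2 families was itself tested in a fit of all 15 libraries, where 8940 of 17915 genes (49.9%) changed unequally in PEA2 and in the mean of PEO4 and PEO6. Of the 815 shared genes, 362 were among them, which is no larger a share than over all genes. For those 362 a common direction came with unequal sizes.

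With the line as the unit the evidence was thinner. Counts summed per line left 5 columns and 2 residual degrees of freedom. DESeq2 called 309 of 17027 genes with family as a covariate (1.81%), 150 of them higher (0.881%) and 159 lower (0.934%), of which 83 higher and 126 lower were also shared in the 3 pair tests. The quasi-likelihood test of edgeR called 0 of them on the same sums, and 780 genes had an unadjusted p under 0.05. An exact permutation test over lines cannot pass 0.05 here, because the 6 ways to place the sensitive role within families give a smallest one-sided p of 0.167. The fit of 9 against 6 libraries called 4075 of 17915 genes (22.7%), among them 331 of the 332 shared higher and 482 of the 483 shared lower genes, but it counts libraries of one line as independent. The fit over lines in its turn counts PEO4 and PEO6, of one patient, as independent. Genes given below as called over lines were called there by DESeq2 and not by edgeR.

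ERBB4, SLC44A4, ESPN and KRT17 had the largest minimum changes among the shared higher genes. The genes ranked this way, higher or lower, were taken only from those without overlap between the libraries of any pair. Their separation within pairs was therefore set by the choice. ERBB4, a receptor tyrosine kinase for neuregulins (chromosome 2, 211375717 to 212538802, in build GRCh38.p14, which all positions use), read 0, 0 and 0.012 TPM in PEA1 and 0.603, 0.504 and 0.281 in PEA2. In the PEO family its levels were 0.04, 0.0117 and 0.00496 TPM in PEO1, 4.52, 4.57 and 2.62 in PEO4, and 17.7, 25.8 and 17.2 in PEO6. The levels in PEA2 were far below those in PEO4 and PEO6. The PEA1 libraries held 2 ERBB4 counts in total, which gave a ratio of 161 with a 95% counting interval of 44.5 to 1330. The log2 fold changes were 7.86 ± 0.52 in PEO4 and 10.19 ± 0.55 in PEO6 (± SE here and below, DESeq2 adjusted p of 7.35e-75 for PEO6 and 1.02e-08 for PEA2). ERBB4 had the lowest adjusted p of all genes in the test over lines, 2.81e-12 by DESeq2, where edgeR gave 0.999. The study had chosen ERBB4 for a panel of its own partly on these samples, so its direction is not independent evidence.

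SLC44A4, a transporter of the choline transporter-like family (chromosome 6, 31863192 to 31878997), had the largest minimum change. It read 0.0212, 0.0848 and 0.12 TPM in PEA1 and 3.78, 2.98 and 4.15 in PEA2. It held 1 count over the 3 PEO1 libraries and read 8.84, 8.16 and 3.63 TPM in PEO4 and 44.7, 48.5 and 59.1 in PEO6. Of the resistant lines, PEO6 had the highest and PEA2 the lowest mean level. The log2 fold change in PEA2 was 5.88 ± 0.66 (DESeq2 adjusted p 1.09e-17), and the ratios in the PEO family were 917 (165 to 36200) and 6560 (1180 to 259000). ESPN, which bundles actin in microvilli and stereocilia, rose in the same way from 10 counts in PEA1 and 1 count in PEO1 to mean levels of 0.851 ± 0.203 TPM in PEA2, 5.26 ± 0.705 in PEO4 and 4.31 ± 1.83 in PEO6 (SD, n = 3).

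KRT17, a keratin of basal and stressed epithelia (chromosome 17, 41619442 to 41624575), read 0.211, 0.401 and 0.149 TPM in PEA1 and 2.96, 3.6 and 3.04 in PEA2. Its levels were 0.989, 0.937 and 0.864 TPM in PEO1, 38.7, 29 and 31.1 in PEO4, and 31.8, 35.3 and 67.9 in PEO6. Every resistant library lay above every sensitive one, across families as well as within them. The log2 fold changes were 3.81 ± 0.61, 5.18 ± 0.28 and 5.50 ± 0.33 in PEA2, PEO4 and PEO6, and KRT17 was also called over lines (DESeq2 adjusted p 5.63e-10). KRT17 has close paralogues, and reads shared with them could be split by the counting.

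RP11-344B5.2, an RNA with no position used here, was called over lines too (6.5 ± 0.88 on the log2 scale, DESeq2 adjusted p 5.63e-10). PEA2 held 17 counts of RP11-344B5.2 and was not called there.

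Of the next shared higher genes in that order, TMPRSS4, TRIL and PRKCB had at least 1 sensitive line near 0. TMPRSS4, a membrane-bound serine protease, had 0 counts in PEA1 and 19.4 ± 0.813 TPM in PEA2, at least 374-fold higher against a floor of 3 counts in each library. It went from 0.649 ± 0.239 TPM in PEO1 to 12.9 ± 5.94 in PEO4 and 8.59 ± 3.41 in PEO6 (SD, n = 3). PRKCB, the beta isoform of protein kinase C, went from 0.0339 ± 0.0132 to 17.2 ± 0.975 TPM in the PEA family, and from 0.0603 ± 0.0219 in PEO1 to 0.654 ± 0.19 in PEO4 and 3.75 ± 1.24 in PEO6. TRIL, an accessory protein of Toll-like receptor signalling, had 0 counts in PEA1 and at most 3.73 ± 0.801 TPM in any resistant line. APOL3, an apolipoprotein L gene, had log2 fold changes of 2.72 ± 0.33, 3.40 ± 0.29 and 3.24 ± 0.36, and its difference between families did not pass the test (-0.61 ± 0.36 on the log2 scale, DESeq2 adjusted p 0.151).

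**Figure D2:**
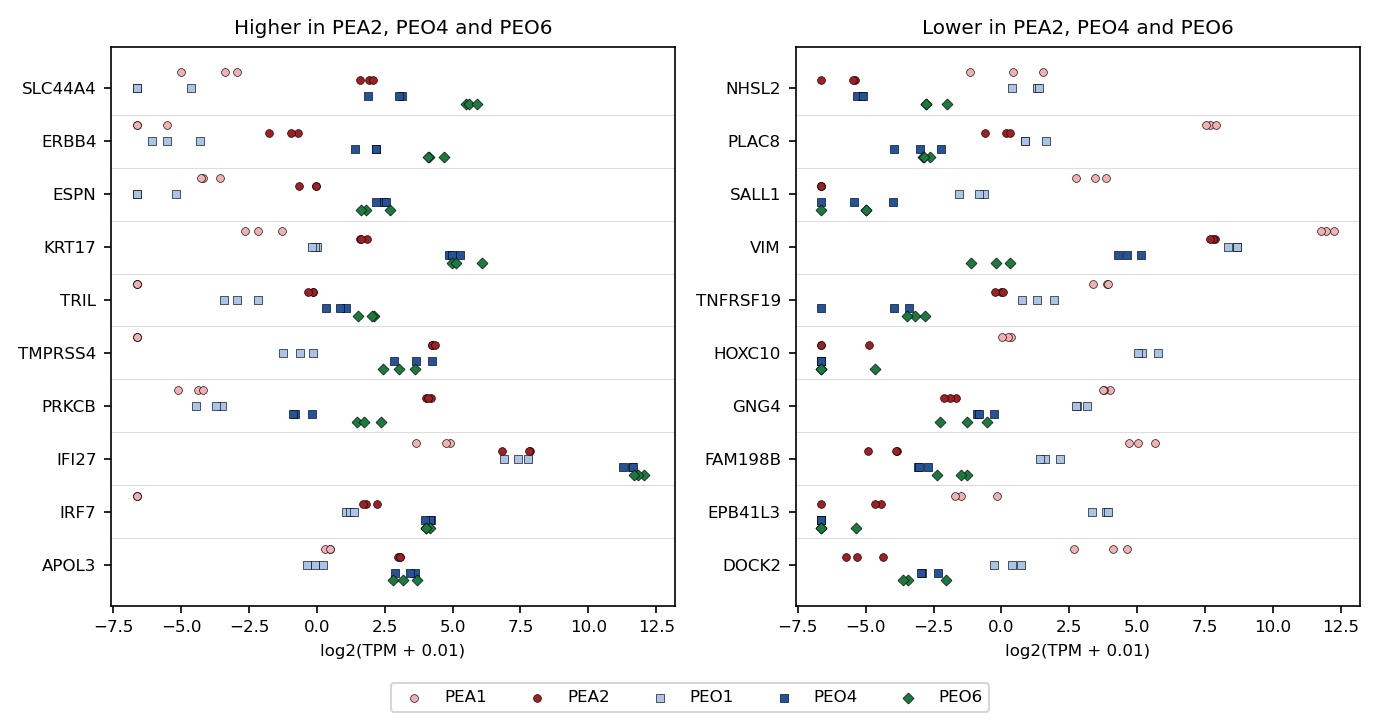
Level of the 10 shared higher genes (left) and 10 shared lower genes (right) with the largest minimum change, as log2(TPM + 0.01) in each of 15 libraries, with one symbol and colour per line. The genes were chosen from those whose libraries did not overlap in any pair, so that separation was set by the choice. The levels of the resistant lines themselves differ widely, as for VIM and SLC44A4.

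VIM, HOXC10 and SALL1 were among the 10 shared lower genes with the largest minimum change. VIM, the intermediate filament of mesenchymal cells (chromosome 10, 17228241 to 17237593), read 3964, 4861 and 3536 TPM in PEA1 and 231, 223 and 205 in PEA2. It read 328, 415 and 409 TPM in PEO1, 19.5, 24.4 and 35 in PEO4, and 1.22, 0.449 and 0.858 in PEO6. The level in PEA2 lay above that in the resistant PEO lines and below that in PEO1. The log2 fold changes were -4.10 ± 0.24 in PEA2, -3.87 ± 0.21 in PEO4 and -8.89 ± 0.34 in PEO6 (largest DESeq2 adjusted p 3.8e-62), and the fall over lines was called with an adjusted p of 0.0227.

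HOXC10, a homeobox factor that patterns the posterior body axis (chromosome 12, 53985146 to 53990279), was nearly silent in every resistant line. It read 1.27, 1.16 and 1.01 TPM in PEA1 and 36.1, 32.7 and 54.1 in PEO1. PEA2 and PEO6 held 1 count each over 3 libraries, and PEO4 held 0. The fall was at least 375-fold in PEO4, and the 95% counting interval for the ratio of PEA1 to PEA2 was 20.9 to 4590. PEG3, an imprinted zinc finger gene, was similar, with 94 counts in PEA1, 904 in PEO1, 0 in PEA2 and PEO4 and 1 in PEO6. SALL1, a zinc finger factor of kidney and limb development, had 0 counts in PEA2, 6 in PEO4 and 4 in PEO6, from 10.7 ± 3.9 TPM in PEA1 and 0.508 ± 0.158 in PEO1 (SD, n = 3). The calls for PEG3 were lost when all 33 libraries were fitted together (DESeq2 adjusted p 0.257 to 0.409).

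ADAM19, a membrane-anchored metalloprotease (chromosome 5, 157477304 to 157575775), fell by similar amounts in the 2 patients. Its levels were 35, 23 and 50.4 TPM in PEA1 against 3.36, 2.58 and 1.29 in PEA2. They were 24.8, 17.9 and 38.1 TPM in PEO1, 2.94, 2.46 and 3.28 in PEO4, and 1.63, 1.16 and 2.48 in PEO6. No resistant library reached the lowest sensitive one. The log2 fold changes were -3.80 ± 0.32, -3.13 ± 0.18 and -3.96 ± 0.23, the difference between families was -0.16 ± 0.41 (DESeq2 adjusted p 0.776), and ADAM19 was called over lines (adjusted p 8.56e-09).

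The other 7 of these 10 genes were TNFRSF19, GNG4, DOCK2, PLAC8, FAM198B, NHSL2 and EPB41L3. TNFRSF19, a receptor of the TNF receptor superfamily, fell from 13.5 ± 2.69 to 0.95 ± 0.103 TPM in the PEA family and from 2.66 ± 1.09 TPM in PEO1 to 0.0462 ± 0.043 in PEO4 and 0.104 ± 0.0259 in PEO6 (SD, n = 3). GNG4, a G protein gamma subunit, had log2 fold changes of -5.68 ± 0.30, -3.56 ± 0.26 and -4.27 ± 0.35. DOCK2, a Rac exchange factor known from blood cells, went from 16.1 ± 9.33 to 0.0208 ± 0.0158 TPM in the PEA family and from 1.24 ± 0.41 TPM in PEO1 to 0.142 ± 0.0388 and 0.128 ± 0.09 in PEO4 and PEO6. PLAC8 fell from 210 ± 28.7 to 1 ± 0.311 TPM in the PEA family and from 2.24 ± 0.735 TPM in PEO1 to 0.124 ± 0.0752 and 0.135 ± 0.0143 in PEO4 and PEO6. FAM198B and NHSL2 were lower in all 3 pairs, with smallest changes of -3.48 ± 0.39 and -4.30 ± 0.43 on the log2 scale, both in PEO6. EPB41L3, a membrane skeleton protein of the 4.1 family, was at 0.504 ± 0.319 TPM in PEA1, and its call in PEA2 was lost without replicate 1 (DESeq2 adjusted p 0.0538).

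Interferon-stimulated genes split between the patients. All 30 members of the list were higher in PEO4 and all 30 in PEO6 (16.6% and 21.2% of all tested genes were), with median log2 fold changes of 3.347 and 2.538. In PEA2 22 fell (23.8% of all tested genes did), 5 rose and 3 were not called, with a median of -1.409. The median over all tested genes lay between -0.02175 and 0.02263 in the 3 pairs. The 5 genes higher in all 3 lines were IFI27, IFITM1, IFITM3, MX2 and IRF7, and leaving out one replicate number left 3 to 5 of them. As all 30 rose in both PEO lines, these 5 are simply the members that rose in PEA2. They make 16.7% of the list, against 23.3% of all tested genes higher in PEA2 and 2.12% higher in all 3 pairs.

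Promoter sequence is shown for genes on both sides of that split, because the 5 genes shown hold the same interferon motif. The 250 bases before the gene start are given 5′ to 3′ on the gene's strand (RefSeq, GRCh38.p14), and capitals mark the core of the interferon-stimulated response element, GAAA followed after any 2 bases by a second GAAA, or its reverse complement. IFI27 (chr14:94110486-94110735, plus strand), IFITM1 (chr11:313790-314039, plus) and IFITM3 (chr11:320861-321110, minus) rose in all 3 lines, and ISG15 (chr1:1013247-1013496, plus) and IFIT1 (chr10:89392373-89392622, plus) fell in PEA2.
IFI27: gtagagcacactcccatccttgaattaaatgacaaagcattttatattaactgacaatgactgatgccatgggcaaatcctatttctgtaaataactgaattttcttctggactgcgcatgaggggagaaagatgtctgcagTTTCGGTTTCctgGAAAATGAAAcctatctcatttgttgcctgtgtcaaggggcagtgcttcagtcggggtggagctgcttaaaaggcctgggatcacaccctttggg
IFITM1: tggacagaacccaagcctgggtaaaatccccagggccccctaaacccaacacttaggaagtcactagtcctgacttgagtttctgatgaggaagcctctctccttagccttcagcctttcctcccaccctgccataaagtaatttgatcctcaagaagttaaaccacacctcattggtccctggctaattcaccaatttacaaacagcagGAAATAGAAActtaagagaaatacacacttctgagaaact
IFITM3: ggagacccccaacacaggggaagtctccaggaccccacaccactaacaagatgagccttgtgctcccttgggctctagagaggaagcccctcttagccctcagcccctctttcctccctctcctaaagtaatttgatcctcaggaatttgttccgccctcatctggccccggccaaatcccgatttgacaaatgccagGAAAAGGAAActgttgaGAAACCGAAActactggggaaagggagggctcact
ISG15: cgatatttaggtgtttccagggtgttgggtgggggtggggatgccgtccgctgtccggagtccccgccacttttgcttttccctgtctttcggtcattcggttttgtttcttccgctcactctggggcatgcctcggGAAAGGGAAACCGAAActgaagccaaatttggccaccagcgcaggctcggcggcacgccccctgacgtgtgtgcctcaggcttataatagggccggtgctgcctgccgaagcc
IFIT1: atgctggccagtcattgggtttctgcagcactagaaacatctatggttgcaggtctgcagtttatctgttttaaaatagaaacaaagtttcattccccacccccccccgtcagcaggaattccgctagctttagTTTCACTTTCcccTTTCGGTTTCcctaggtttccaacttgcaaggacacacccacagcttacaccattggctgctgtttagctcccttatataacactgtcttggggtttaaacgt
The motif, searched on both strands, lay in 14 of the 23 list members with a promoter entry (60.9%) and in 839 of all 27305 promoters (3.07%). It was in 3 of 3 such members that rose in all 3 lines and in 11 of 18 with opposite directions (61.1%). IRF7 and MX2 had no promoter entry. Over all shared genes it lay in 7 of 222 promoters of higher genes (3.15%) and in 4 of 343 of lower genes (1.17%).

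IFI27, a mitochondrial protein strongly induced by type I interferon, read 30.1, 26.9 and 12.5 TPM in PEA1 and 233, 113 and 223 in PEA2. It read 172, 217 and 120 TPM in PEO1, 3094, 3238 and 2492 in PEO4, and 4207, 3654 and 3323 in PEO6. The resistant libraries of each family were all above its sensitive ones, as the choice of this gene required, and PEA2 was at the level of PEO1. Log2 fold changes were 3.24 ± 0.38, 4.10 ± 0.19 and 4.40 ± 0.24 (largest DESeq2 adjusted p 2.31e-16), and the difference between families did not pass (-0.92 ± 0.47, adjusted p 0.0937). IRF7, the factor that drives interferon gene transcription, had 0 counts in PEA1 and read 3.53, 3.21 and 4.68 TPM in PEA2, at least 44.9-fold higher. It went from 2.33 ± 0.252 TPM in PEO1 to 17.3 ± 1.49 in PEO4 and 16.7 ± 0.958 in PEO6, and its call in PEA2 was lost without replicate 1 (adjusted p 0.0626). MX2, an antiviral GTPase, rose by 3.82 ± 0.33, 2.52 ± 0.48 and 2.65 ± 0.52 on the log2 scale. IFITM1 and IFITM3 block virus entry, are closely related neighbours whose reads may be split between them, and rose less in PEA2 (2.40 ± 0.35 and 0.86 ± 0.30) than in the PEO mean. That difference was called for both, at -5.68 ± 0.46 and -2.46 ± 0.32 (adjusted p 9.46e-34 and 2.38e-13), and the IFITM3 call in PEA2 was lost without replicate 1 or 3 (0.0922 and 0.132).

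On the other side, ISG15, a ubiquitin-like antiviral modifier, read 219, 296 and 101 TPM in PEA1 and 69.8, 64.6 and 75.5 in PEA2. It read 21.8, 23.7 and 23.3 TPM in PEO1, 519, 445 and 426 in PEO4, and 336, 402 and 377 in PEO6. The order of sensitive and resistant libraries was thus inverted between the families without overlap. The log2 fold change was -1.32 ± 0.36 in PEA2, a call lost without replicate 1 or 2 (DESeq2 adjusted p 0.0771 and 0.0888), and 4.36 ± 0.19 and 4.01 ± 0.23 in the PEO lines. IFIT1, which binds viral RNA, behaved alike (-1.70 ± 0.35, 4.13 ± 0.19 and 3.78 ± 0.28), and its difference between families was called (adjusted p 4.25e-29). Of 16 genes of MHC class I antigen presentation, 13 rose in PEO4 and 14 in PEO6 (16.6% and 21.2% of all genes did) while 8 fell in PEA2 (23.8%), with HLA-B at -2.17 ± 0.25, 1.25 ± 0.17 and 1.48 ± 0.21. HLA genes are near-identical and polymorphic, so their counts are uncertain. The peptide-trimming enzyme ERAP1 was the 1 member higher in all 3 lines (6.25% against 2.12%), and was not when any replicate number was left out. CCL5, a T cell chemokine of the study's panel, followed the same split at 22.6 ± 8.17 TPM in PEA1 and 0.127 ± 0.0614 in PEA2, and at 0.0937 ± 0.0982 in PEO1, 65.8 ± 4.34 in PEO4 and 14.7 ± 5.05 in PEO6 (SD, n = 3).

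**Figure D3:**
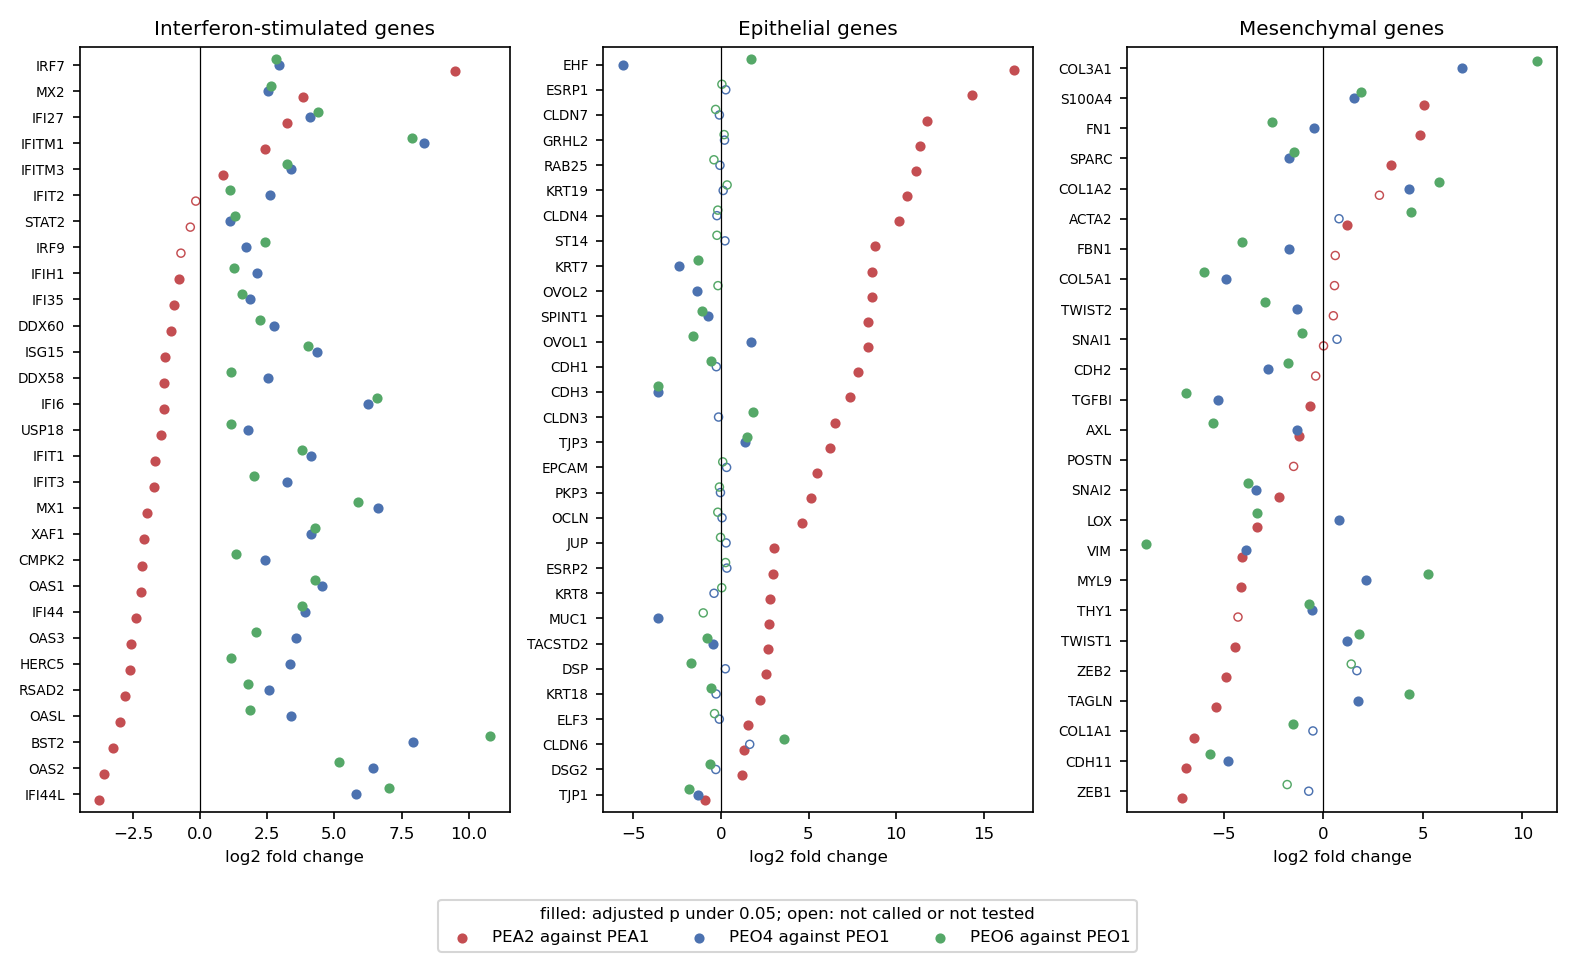
Log2 fold change of resistant against sensitive line for the genes of 3 lists (interferon-stimulated without 1 member, epithelial, mesenchymal), in PEA2 (red), PEO4 (blue) and PEO6 (green), ordered by the change in PEA2. Filled points passed the test. Interferon genes lie to the right of 0 in both PEO lines and mostly to the left in PEA2, and 29 of 30 epithelial genes lie to the right in PEA2. Open points were not called or not tested.

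Epithelial genes moved in PEA2. There 29 of the 30 listed junction and identity genes were higher and 1 lower, with a median log2 fold change of 6.369. Over all tested genes 23.3% were higher in PEA2. In PEO4 2 were higher and 8 lower (16.7% of all genes were lower), and in PEO6 4 were higher and 10 lower (20.3%), with medians of -0.08447 and -0.1974. EPCAM rose by 5.48 ± 0.22 in PEA2 and had log2 fold changes of 0.33 ± 0.17 and 0.11 ± 0.23 in PEO4 and PEO6, where it was not called (DESeq2 adjusted p 0.142 and 0.74). The difference between the families was 5.22 ± 0.29 (adjusted p 1.68e-68). TJP3, a tight junction scaffold, was higher in all 3 lines (6.24 ± 0.41, 1.36 ± 0.23 and 1.48 ± 0.30), and its relative TJP1 was lower in all 3 (-0.90 ± 0.24, -1.31 ± 0.19 and -1.80 ± 0.23). KRT7, a simple epithelial keratin, was among the opposite genes, with 2.95 ± 0.313 TPM in PEA1 and 1186 ± 119 in PEA2, and 1385 ± 217 in PEO1, 261 ± 27.7 in PEO4 and 574 ± 173 in PEO6 (SD, n = 3).

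Some mesenchymal genes fell in every resistant line. Of the 22 listed that were tested in all 3 pairs, 5 were lower in every resistant line (22.7% against 3.08% of all genes) and 1 was higher. Besides VIM, the lower ones were SNAI2, AXL, CDH11 and TGFBI, and the list had 4 or 5 lower genes when a replicate number was left out. SNAI2, a transcriptional repressor that drives epithelial-mesenchymal transition, read 8.93, 10.9 and 8.41 TPM in PEA1 and 1.7, 2.24 and 1.63 in PEA2. It read 1.65, 1.43 and 2.71 TPM in PEO1, 0.111, 0.0535 and 0.545 in PEO4, and 0.0744, 0.107 and 0.271 in PEO6. Libraries were separated in every pair, PEA2 again sat at the level of PEO1, and SNAI2 was called over lines (-2.87 ± 0.67, DESeq2 adjusted p 0.00275). AXL, a receptor tyrosine kinase, fell by similar amounts in PEA2 and PEO4 (-1.22 ± 0.29 and -1.35 ± 0.18) and further in PEO6 (-5.57 ± 0.37). TGFBI, a secreted matrix protein, changed by -0.67 ± 0.22 in PEA2, a call lost without replicate 1 (adjusted p 0.265), and by -5.27 ± 0.21 and -6.92 ± 0.34 in the PEO lines. S100A4, a calcium-binding protein of motile cells, was the higher one, from 15.7 ± 1.37 to 485 ± 1.21 TPM in the PEA family and from 9.3 ± 3.6 TPM to 25.2 ± 2.7 and 32.8 ± 2.32 in the PEO lines (SD, n = 3). As many members split between the families, namely FN1, TWIST1, SPARC, TAGLN and MYL9. Of these, 2 were higher in PEA2 and lower in both PEO lines, and 3 the other way (4.02% and 3.04% of all genes). Fibronectin (FN1) rose by 4.84 ± 0.25 in PEA2 and had log2 fold changes of -0.47 ± 0.19 in PEO4 and -2.6 ± 0.24 in PEO6. The sum of the 8 fibroblast markers was also lower in the resistant lines of each family, as given above, but its members did not all fall. Called lower were 3 of 3 tested in PEA2, 2 of 7 in PEO4 and 3 of 6 in PEO6, and 1 was higher in each PEO line. Over all genes 23.8%, 16.7% and 20.3% were lower. Only 2 of the markers were tested in all 3 pairs, and 0 were lower in all 3. Their part in the falls of mesenchymal genes was not tested.

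Markers of ovarian carcinoma and of the Müllerian lineage had the largest shared higher share of any list of 10 or more tested genes. Of 18 members tested in all 3 pairs, 5 were higher in every resistant line (27.8% against 2.12% of all genes) and 1, MECOM, was lower. The 5 were MUC16 (the CA125 antigen), MSLN (mesothelin), WFDC2 (HE4) and the kallikreins KLK7 and KLK8. MSLN read 2.26, 1.43 and 2.26 TPM in PEA1 and 12.9, 15.9 and 18.3 in PEA2, and 104, 79.8 and 81.8 in PEO1 against 175, 134 and 94.9 in PEO4 and 206, 307 and 302 in PEO6. The log2 fold change of MSLN in PEO4 was 0.58 ± 0.17, and its TPM values there overlapped those of PEO1. MUC16 rose by 6.25 ± 0.33, 0.68 ± 0.17 and 2.45 ± 0.22 on the log2 scale and WFDC2 by 5.19 ± 0.35, 0.69 ± 0.17 and 1.11 ± 0.26. The kallikreins were at 0 counts in PEA1 and under 1 TPM in PEA2, with 49 counts of KLK7 and 20 of KLK8, while the PEO lines ran from 75.3 to 364 TPM in line means. Without replicate 1 the list had 0 higher genes in all 3 lines, and without replicate 2 or 3 it had 3. MUC16 and WFDC2 are 2 of the 11 carcinoma markers that were low in PEA1, and MSLN is 1 of 7 mesothelial markers, whose sum was 24.6 to 66.1 TPM in PEA1 and 83.5 to 115 in PEA2, and 152 to 216 TPM in PEO1, 246 to 340 in PEO4 and 358 to 512 in PEO6. Their part in these rises was not tested.

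**Figure D4:**
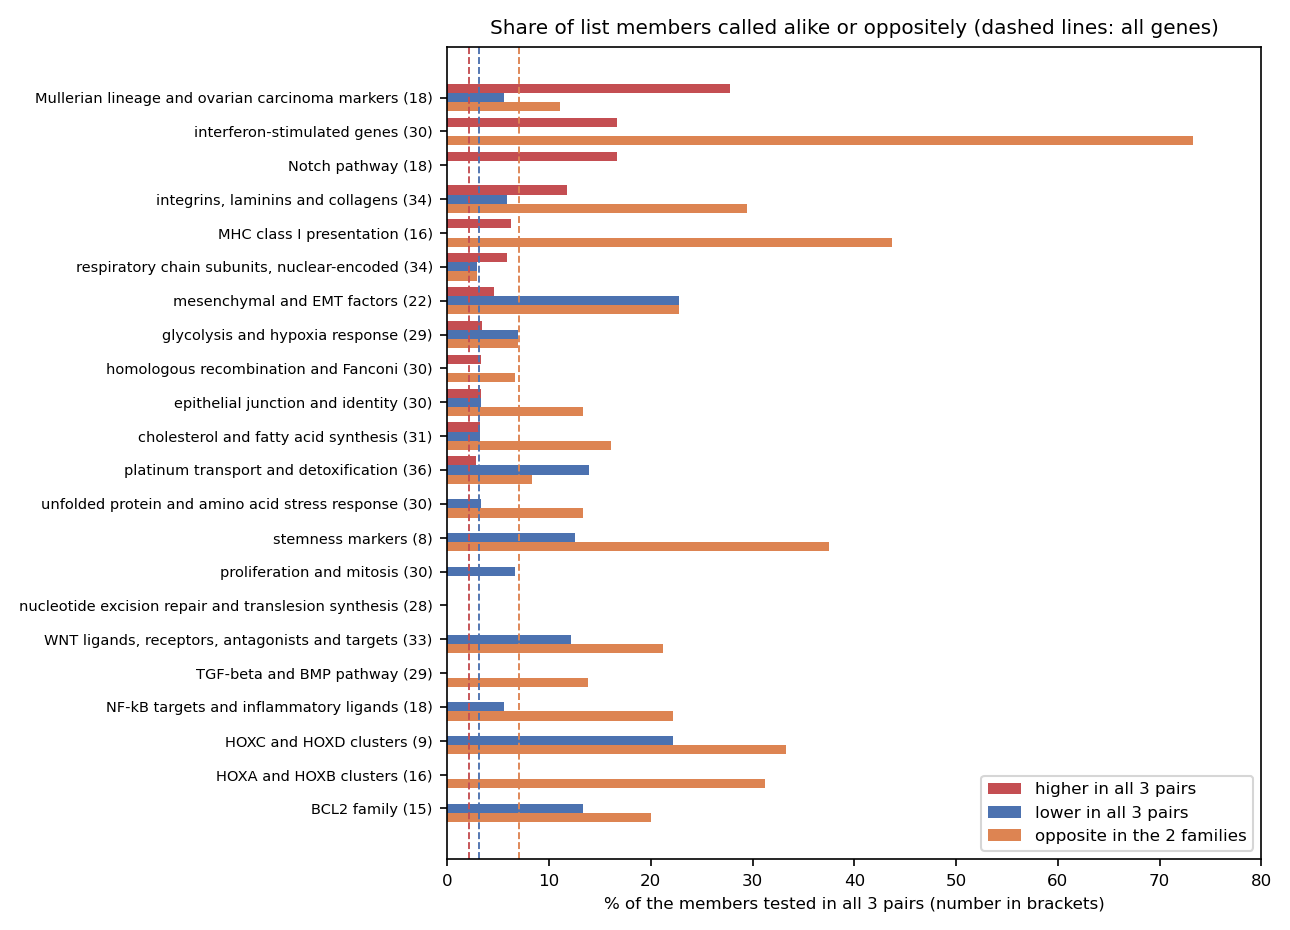
Share of the members of each gene list, without the study's own panels and the cell type marker lists, among those tested in all 3 pairs (number in brackets), that were higher in all 3 pairs (red), lower in all 3 (blue) or opposite in the 2 families (orange). Dashed lines give the share over all 15682 genes, 2.12%, 3.08% and 7.05%. The interferon list has the longest orange bar and the ovarian marker list the longest red bar.

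Platinum transport and detoxification genes were lower in all 3 lines more often than genes in general. Of 36 tested genes of platinum transport and detoxification, 5 were lower in every resistant line (13.9% against 3.08%) and 1 was higher. GCLM, the modifier subunit of glutamate-cysteine ligase, had log2 fold changes of -0.84, -1.39 and -2.64 in PEA2, PEO4 and PEO6, while the catalytic subunit GCLC rose by 0.60 ± 0.23, 1.68 ± 0.18 and 1.25 ± 0.23. HMOX1 (heme oxygenase), which like GCLM is a target of the oxidative stress factor NRF2, read 27.2, 32.7 and 29.4 TPM in PEA1 and 7.36, 8.01 and 7.57 in PEA2. It read 12.3, 11.5 and 11.6 TPM in PEO1, 6.41, 5.18 and 4.98 in PEO4, and 1.02, 0.872 and 1.63 in PEO6. The groups did not overlap in either family (-1.84 ± 0.27, -1.07 ± 0.26 and -3.39 ± 0.36, largest DESeq2 adjusted p 0.000195). The other 3 lower genes were NQO1 (a quinone reductase), MT1M (a metallothionein, with close paralogues) and SLC47A1 (a cation exporter, 2 counts in PEA2). Without one replicate number the list had 1 to 4 lower genes and at most 1 higher gene. In the study's own panel of 4 platinum influx and efflux genes 0 were shared (2.12% of all genes were higher and 3.08% lower in all 3 lines). That panel is too small to tell 0 from these shares.

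Few DNA repair genes were shared, but the lists are short and the share over all genes is low. Of 30 genes of homologous recombination and the Fanconi pathway 1 was higher in all 3 lines, RAD50, a subunit of the MRN complex that binds DNA breaks (3.33% against 2.12%). RAD50 read 22.5, 27 and 25.3 TPM in PEA1, 44.8, 39.1 and 44.4 in PEA2, 27.3, 23.4 and 29.9 in PEO1, 42.8, 40.8 and 39.9 in PEO4, and 62.9, 63.8 and 62 in PEO6. The lowest resistant library, at 39.1 TPM, lay above the highest sensitive one, at 29.9. Its log2 fold changes were 0.90 ± 0.25, 0.66 ± 0.16 and 1.21 ± 0.22, and without replicate 1 it was not called in PEA2 or PEO4 (DESeq2 adjusted p 0.106 and 0.0764). Of 28 genes of nucleotide excision repair and translesion synthesis 0 were shared in either direction (2.12% of all genes were higher and 3.08% lower). That list is too short to tell 0 from these shares. In the BCL2 family the pro-apoptotic members BMF and BOK were lower in all 3 lines, 2 of 15 tested (13.3% against 3.08%), and neither remained in all 3 without replicate 1 or 2.

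A few WNT and Notch genes were shared. Of 33 tested WNT genes 0 were higher and 4 lower in all 3 lines (12.1% against 3.08%). Another 7 had opposite directions in the 2 families (7.05% of all genes had them). WNT5B, a non-canonical ligand, read 11, 6.21 and 9.25 TPM in PEA1 and 0.937, 1.59 and 1.16 in PEA2, and 11.4, 7.24 and 9.37 in PEO1 against 1.4, 0.727 and 0.662 in PEO4 and 0.987, 2.23 and 2.32 in PEO6. All resistant libraries lay below all sensitive ones, at like levels in the 2 patients (-2.70 ± 0.37, -3.34 ± 0.31 and -2.41 ± 0.36). The receptor FZD7 had log2 fold changes of -1.87, -1.51 and -3.38, and the secreted antagonist SFRP1 of -4.84, -2.33 and -4.39. The fourth was the receptor FZD6, whose changes were at most 0.85 and whose PEO4 call was lost in most alternatives. WNT5B and SFRP1 were also called over lines (DESeq2 adjusted p 0.000637 and 0.00233). In the Notch list 3 of 18 tested genes were higher in all 3 lines (16.7% against 2.12%) and 0 lower, namely the target genes HES4 and NRARP and the ubiquitin ligase DTX4. Without one replicate number the list had 1 or 2, and NRARP lost its call in PEO6 each time (DESeq2 adjusted p 0.159 to 0.236). HES4 read 4.71, 7.11 and 3.48 TPM in PEA1, 11.2, 16.1 and 11 in PEA2, 1.71, 1.87 and 1.62 in PEO1, 6.93, 7.48 and 8.54 in PEO4, and 6.72, 13.6 and 6.86 in PEO6. The pairs did not overlap (1.46 ± 0.36, 2.20 ± 0.41 and 2.35 ± 0.43). DTX4 rose by almost equal amounts (1.53 ± 0.26, 1.39 ± 0.18 and 1.45 ± 0.26). It is also 1 of 6 genes of earlier prognostic signatures that the study named as often higher in its resistant lines. With DTX4, C1orf116 and SLC37A1 of those 6 were higher in all 3 lines (2.12% of all genes were). When a replicate number was left out, 1 or 2 of the 6 were. The 6 were named for being higher, partly on these samples, so this count says nothing about the signatures as a whole.

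Adhesion, stemness and growth lists held isolated shared genes. Of 34 integrin, laminin and collagen genes 4 were higher in all 3 lines (ITGB2, ITGB8, LAMA5 and COL12A1, 11.8% against 2.12%) and 2 lower (ITGA4 and COL4A1, 5.88% against 3.08%), beside 10 with opposite directions (7.05% of all genes had them). LAMA5, a laminin chain of epithelial basement membranes, rose by 2.24 ± 0.29, 1.42 ± 0.17 and 1.5 ± 0.26, and ITGA4, an integrin subunit known from leukocytes, had changes of -5.61, -2.08 and -3.4. Among 12 stemness markers 8 were tested in all 3 pairs, and CD24 was the only one shared (12.5% against 3.08% lower). Its log2 fold changes were -1.74 ± 0.26 and -1.73 ± 0.16 in PEA2 and PEO4 and -0.76 ± 0.21 in PEO6. PROM1 (CD133) was opposite, at 0.241 ± 0.112 TPM in PEA1 and 11 ± 2.58 in PEA2, and at 262 ± 45.8 in PEO1, 0.127 ± 0.0395 in PEO4 and 111 ± 38.1 in PEO6 (SD, n = 3). CD44 and ALDH1A3 were opposite too, with ALDH1A3 at 7.64 ± 0.22, -4.00 ± 0.17 and -8.88 ± 0.27. Thus 3 of the 8 were higher in PEA2 and lower in both PEO lines, as 4.02% of all genes were. Of 30 proliferation genes 12 fell in PEA2, 5 in PEO4 and 25 in PEO6 (23.8%, 16.7% and 20.3% of all genes did), and 2 were lower in all 3, CCNB2 and BUB1B (6.67% against 3.08%), with at most 1 left when a replicate number was left out. The apoptosis inhibitor BIRC3 was the 1 shared gene of 18 tested NF-kB targets (5.56% against 3.08%), lower in all 3 but not without replicate 1 or 2. Another 4 were higher in PEA2 and lower in both PEO lines (4.02% of all genes were). Among them was the chemokine gene CXCL1 (3.84 ± 0.24, -2.70 ± 0.28 and -2.08 ± 0.33).

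Some genes carried the opposite pattern at large scale. KRT81 and KRT86, hair keratins with near-identical and overlapping genes, went from 0.463 ± 0.121 and 0.42 ± 0.0156 TPM in PEA1 to 509 ± 63.1 and 33.6 ± 2.14 in PEA2, and had log2 fold changes of -4.67 to -5 in the PEO lines. S100A9, a calcium-binding protein of inflamed epithelia and myeloid cells, had 0 counts in PEA1 and 74.4 ± 17.8 TPM in PEA2, and went from 136 ± 35.8 in PEO1 to 7.35 ± 1.5 in PEO4 and 7.21 ± 0.645 in PEO6. CDH4 (R-cadherin) was at 0 counts in PEA1, PEO4 and PEO6 and at 2.34 ± 0.13 and 4.45 ± 1.25 TPM in PEA2 and PEO1, at least 96.1-fold higher in PEA2 and at least 143-fold and 182-fold lower in PEO4 and PEO6. Its calls were lost when all 33 libraries were fitted together (DESeq2 adjusted p 0.11 to 0.163). Clusterin (CLU), a secreted chaperone, fell from 84.1 ± 27.7 to 2.55 ± 0.607 TPM in the PEA family and rose from 2.55 ± 0.436 TPM in PEO1 to 180 ± 60 in PEO4 and 1399 ± 423 in PEO6 (SD, n = 3). ZFPM2, a cofactor of GATA factors, was similar, with 1 count in PEA2, 11 in PEO1, and 26.5 ± 6.25 and 43.4 ± 10.1 TPM in PEO4 and PEO6, and C8orf88 had log2 fold changes of -7.41 ± 0.53, 7.20 ± 1.13 and 5.67 ± 0.73.

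The shared genes were then set beside the 4 lines selected from OVCAR3 and OVCAR4 with cisplatin, whose libraries had no part in choosing them. Both lines of a parent share its libraries as controls, so the 4 comparisons are not independent. The shared lower genes were more often higher than lower in each of those lines. They were called higher and lower in 37.9% and 26.7% of 464 tested genes in OVCAR3 ResA (22% and 22.9% of all genes), 13.4% and 4.69% of 448 in OVCAR3 ResB (4.1% and 3.57%), 16.7% and 5.79% of 432 in OVCAR4 ResA (6.68% and 5.22%) and 23.3% and 9.45% of 434 in OVCAR4 ResB (9.09% and 8.77%). The shared higher genes were called higher in 27.2% and lower in 31.9% of 320 tested genes in OVCAR3 ResA, equally often in each direction in OVCAR3 ResB (6.62% and 6.62% of 317) and OVCAR4 ResA (7.97% and 7.97% of 301), and in 9.03% and 19.4% of 310 in OVCAR4 ResB. ADAM19 and NHSL2, for example, were higher in OVCAR3 ResA by 0.97 and 2.49 on the log2 scale. The change in clinical minus cisplatin-selected lines was tested with counts summed per line. DESeq2 called 366 of 17083 genes (2.14%), among them 60 of the 332 shared higher and 135 of the 483 shared lower genes. The shared genes were chosen for their change in the clinical lines, so a surplus of them here is built in. In this contrast edgeR called 0 genes, with 1525 at an unadjusted p under 0.05, again without the number of genes it kept. ERBB4 (10.86 ± 1.90, DESeq2 adjusted p 1.02e-05), SALL1 (-11.89 ± 2, 3.5e-06) and ADAM19 (-4.75 ± 0.72, 1.21e-07) were among the genes called.

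**Figure D5:**
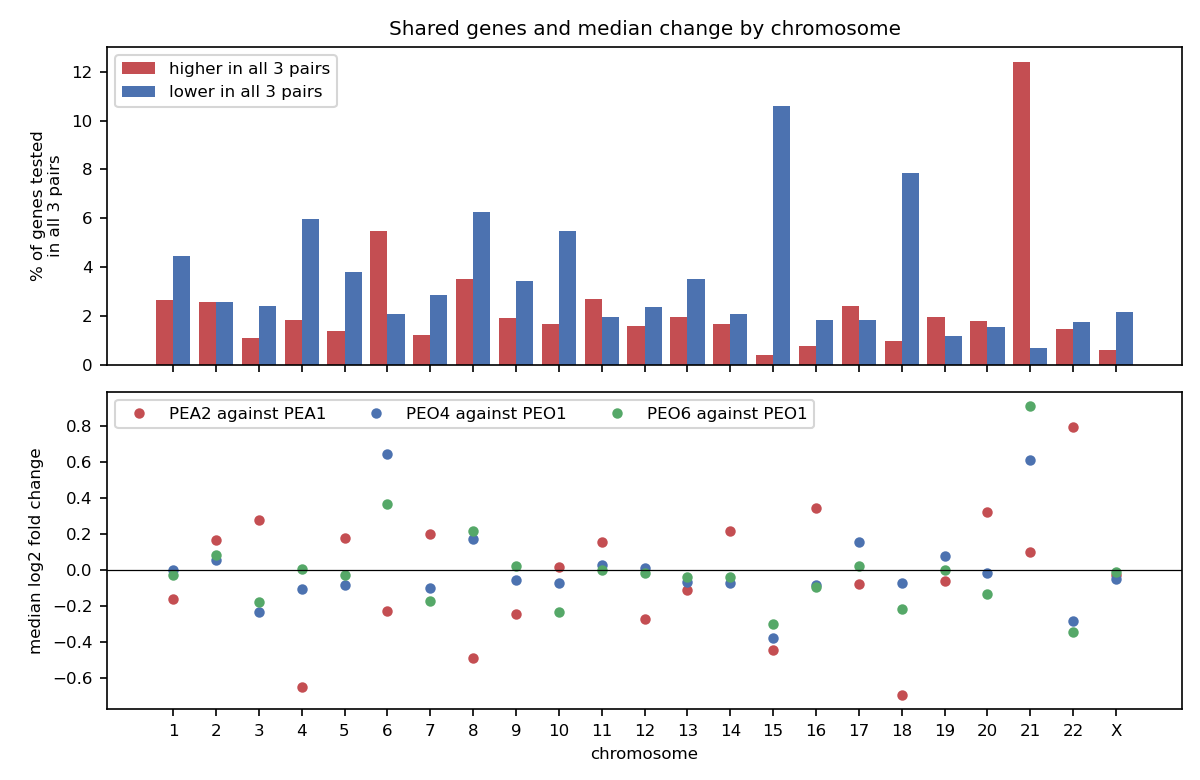
Top, the share of genes tested in all 3 pairs that were higher (red) or lower (blue) in all 3, for each chromosome. Bottom, the median log2 fold change of the genes of each chromosome in PEA2, PEO4 and PEO6. The highest bars are the shared lower genes of chromosome 15 and the shared higher genes of chromosome 21.

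Shared genes were unevenly spread over the chromosomes. On chromosome 15, 54 of 511 tested genes were lower in all 3 lines (10.6% against 3.08% overall) and 2 were higher. Its median log2 fold change was negative in each pair, at -0.443 in PEA2, -0.378 in PEO4 and -0.302 in PEO6, and TJP1, BMF, CCNB2 and BUB1B lie on it. On chromosome 21, 18 of 145 genes were higher in all 3 lines (12.4% against 2.12%) and 1 was lower, with medians of 0.102, 0.607 and 0.909, and MX2, ITGB2 and SLC37A1 lie there. Chromosome 22 held the largest opposite share, 58 of 345 genes (16.8% against 7.05%), with a median of 0.794 in PEA2 and of -0.281 and -0.343 in the PEO lines. Neighbouring genes are not independent, and these shares were not tested.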

How the data were processed

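Poly(A) RNA libraries (KAPA mRNA HyperPrep) were sequenced paired-end (Illumina NextSeq). The authors processed reads with DRAGEN BCL Convert 3.8.4 and nf-core/rnaseq 3.8.1 (Nextflow 22.04.5) on GRCh38 and deposited salmon expected counts per gene and TPM, which is scaled by transcript length and library total. The strand setting of the counting is not given in the sources used here, so overlapping and antisense genes are uncertain. The labels name the line and replicate number, and the sensitive or resistant role and the patient come from the study's text. The labels give no batch.

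Of the 29744 genes, 6501 had 0 counts in all 15 libraries, and 87.9% of the expected counts were whole. Expected counts were rounded and each resistant line was tested against its sensitive line with DESeq2 1.42.0 (Wald test, cell line and replicate number as terms, Benjamini-Hochberg adjusted p under 0.05, R 4.3.3). A gene was shared if called in one direction in all 3 pairs, and opposite if called in all 3 with PEA2 against both PEO lines. Further fits used 9 against 6 libraries with family, counts summed per line, the difference between families, and clinical against cisplatin-selected lines. Alternatives were edgeR 4.0.16, TMM factors, a filter of 10 counts in 3 libraries, no replicate number, limma 3.58.1 on log2(TPM + 1) or log2(TPM + 0.1), each replicate number left out, joint fits, lines or families left out, and an absolute log2 fold change of at least 1. The scripts were tested on simulated data.

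Named genes were the 10 shared genes per direction with the largest minimum log2 ratio, the 4 opposite genes per orientation, the 3 genes per direction with the lowest adjusted p over lines, and shared members of 31 gene lists. Genes named beyond these rules were chosen after their values were seen. The values of 1 interferon list member are not reported here, although list counts include it. The members and lists were chosen with earlier results of these data known. Folds against a line at 0 used a floor of 3 counts in each library, and ratios for lines with 1 to 3 counts carry a 95% Poisson interval. Intervals and floors cover counting error only. Promoters and positions came from RefSeq GRCh38.p14.

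Same-numbered libraries were checked for pairing by correlating their deviations from the line means. The r was 0.25, 0.234 and -0.343 for PEA2, 0.536, 0.00993 and 0.158 for PEO4, and -0.317, 0.238 and 0.274 for PEO6, so the numbers did not pair the libraries.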

Additional observations from a re-analysis of the deposited data

Results flagged for a closer look

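The change in PEA2 differed from that in PEO4 and PEO6, by a test of the difference itself, for 8940 genes, and the change in clinical lines differed from that in cisplatin-selected lines for 366 genes. Values below are differences of log2 fold changes by DESeq2.

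Among the shared higher genes, the change in the PEA family minus that in the PEO family was -5.26 for SLC44A4, -5.52 for ESPN, -1.68 for KRT17, 4.57 for TRIL, 8.77 for TMPRSS4, 3.7 for PRKCB and 6.63 for IRF7. Among the shared lower genes it was -3.46 for PLAC8, -7.52 for SALL1, 2.17 for VIM, 1.58 for TNFRSF19, 5.52 for HOXC10, -1.83 for GNG4, -5.35 for FAM198B, 7.47 for EPB41L3 and -6.47 for DOCK2. Among the opposite genes it was 22 for CDH4, 14.9 for KRT81, 11 for KRT86, 15.9 for S100A9, -19.3 for ZFPM2, -15.9 for CCL5, -13.7 for C8orf88 and -12.5 for CLU. Where a line held 0 counts these fitted values depend on the model and are no bounds.

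The change in clinical minus cisplatin-selected lines, with counts summed per line, was 9.05 for SLC44A4, 10.9 for ERBB4, 7.38 for ESPN, 4.85 for KRT17, 6.16 for TRIL and 6.32 for RP11-344B5.2. It was -8.84 for NHSL2, -5.58 for PLAC8, -11.9 for SALL1, -4.46 for TNFRSF19, -12 for HOXC10, -7.44 for FAM198B, -10.9 for DOCK2 and -4.75 for ADAM19. The quasi-likelihood test of edgeR called 0 genes in this contrast, with 1525 at an unadjusted p under 0.05, of a number kept that is not given here.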

How the results depend on the processing

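Opposite genes outnumbered shared ones under every alternative run for both counts, but the counts moved. Shared higher genes numbered 105 to 197 and shared lower genes 173 to 342 without one replicate number. With limma they numbered 181 and 323 (log2(TPM + 1), filtered), 151 and 225 (no filter) and 170 and 300 (log2(TPM + 0.1)), and with an absolute log2 fold change of at least 1 they numbered 159 and 231. Without the PEA family, added after seeing the data, they numbered 1606 and 1871. The 9 against 6 libraries gave 2494 genes with edgeR, 2169, 1982 and 2250 with limma in the same order, 8088 without the PEO family and 1753 to 2218 without one replicate number, and limma with no filter split them into 745 higher and 1237 lower, against 1961 and 2114. The test over lines gave 0 genes with edgeR, 783 without the PEA family and 213 to 336 without one replicate number. Clinical against cisplatin-selected lines gave 0 with edgeR and 163 to 492 without one replicate number. PEO4 against PEO1 gave 3742 genes with limma and no filter, 3082 at the fold minimum and 2921 to 6200 without one replicate number, PEO6 4172, 4623 and 3712 to 5260, and PEA2 4283 to 6999 without one. The cause was not tested, beyond the fewer libraries in the last kind.

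The replicate numbers did not pair the libraries. Without the replicate block, 9174, 5872 and 7094 genes were called in PEA2, PEO4 and PEO6, 371 were shared higher and 531 shared lower, 4668 were called in 9 against 6 libraries and 8993 differed between families. Of 258 combinations of a named gene and a pair, 63 lost their call under at least 1 of up to 12 alternatives and 0 reversed. On log2(TPM + 1) the median change of all genes in PEA2 was -0.0965, against -0.02175 by DESeq2. With 5 lines of 2 patients, no permutation over lines can pass 0.05.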
